A study of Mus musculus with 4 samples.

Results

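The genes described here are 46 members of the Wnt pathway: ligands, receptors, secreted antagonists, intracellular regulators and target genes. They were chosen by gene symbol, and a row of the array table counted as a member when the platform annotation gave it 1 gene alone and that gene was on the list. Such a row was found for 45 of the 46 genes, out of 19935 genes in all. Tcf7 was not analysed here. Wnt4 had 2 rows and every other member had 1.

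The samples were hair follicle bulge cells from CD-1 males aged 56 days (P56), when follicles rest in their second telogen. Mice in the CSA group had received 100 mg/kg CSA into the peritoneum over 3 days, and mice in the vehicle group the vehicle alone. All cells had been sorted from skin as carrying alpha6 integrin together with CD34, and each group had 2 biological replicates, each on 1 array. CSA is not spelled out in the labels. In calcineurin research it stands for cyclosporine A, a drug that blocks this phosphatase and with it the NFAT transcription factors. How many mice were pooled per sample is not stated in the labels.

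In the canonical Wnt pathway a secreted Wnt protein binds a Frizzled receptor and the co-receptor Lrp5 or Lrp6. This stops a complex that holds Axin and Apc from destroying beta-catenin, which then acts with Tcf and Lef factors on target genes such as Axin2. In the skin this pathway is known for driving the bulge and hair germ from rest into growth, and resting bulge cells are known for making several of its secreted inhibitors.

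Each value below is the distance of a gene from a baseline that the authors set for its row, on a log scale taken as log2. A value of 0 therefore means the baseline and not absence of RNA, and levels cannot be set against each other between genes. Array medians over all rows lay between -0.02 and 0.06. The arrays numbered 2 of both groups correlated across genes (Pearson r 0.545), and other pairs gave 0.01 to 0.17; genes are not independent replicates. Cd34, which was used for the sort, stood above its baseline throughout, with 1.75 and 3.60 in CSA against 4.05 and 4.25 in vehicle. Itga6, which encodes the integrin of the sort, had -0.70 and -0.53 in CSA against -0.9995 and 0.08 in vehicle, below its baseline on 3 of the 4 arrays. These were bulk samples, in which fewer cells of a type and less RNA per cell cannot be told apart. After ± stands limma's moderated standard error, from 2 arrays per group.

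Most Wnt pathway genes stood lower in CSA than in vehicle, and none of the differences passed the test. The differences with the smallest p were those of Axin2, a target and inhibitor of the pathway, and of the receptor gene Fzd7, followed by that of its close relative Fzd1. By the limma test adjusted over all genes 0 of 45 members were called (smallest adjusted p 0.999), as were 0% of all genes. At an unadjusted p under 0.05 limma gave 2 members, Axin2 and Fzd7, against 2.83% of all genes. After quantile normalization the members under it were Fzd1 and Fzd7, among 675 of the 19935 genes. With a mean-variance trend in eBayes it was Axin2 alone, among 547 genes. When each gene was tested on its own variance 0 members reached it. Median centring and the other row choices again gave Axin2 and Fzd7. With 2 arrays against 2, an exact two-sided permutation test of a single gene cannot go below 0.333.

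By direction, 37 members were lower in CSA and 8 were higher, where 58.9% of all genes were lower. The median difference over the members was -0.16, against -0.04 over all genes. Both CSA values lay below both vehicle values for 12 members, and the opposite held for 0. Over all genes these shares were 15.4% and 10.9%. Groups that did not overlap and stood at least 1.5-fold apart were found for 3 members lower in CSA (Fzd1, Fzd7 and Axin2) and for 0 higher, against 1.99% and 3.91% of all genes. Without vehicle replicate 1 the median over the members was -0.06 with 28 lower and 17 higher, and over all genes it was 0.01.

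**Figure D1:**
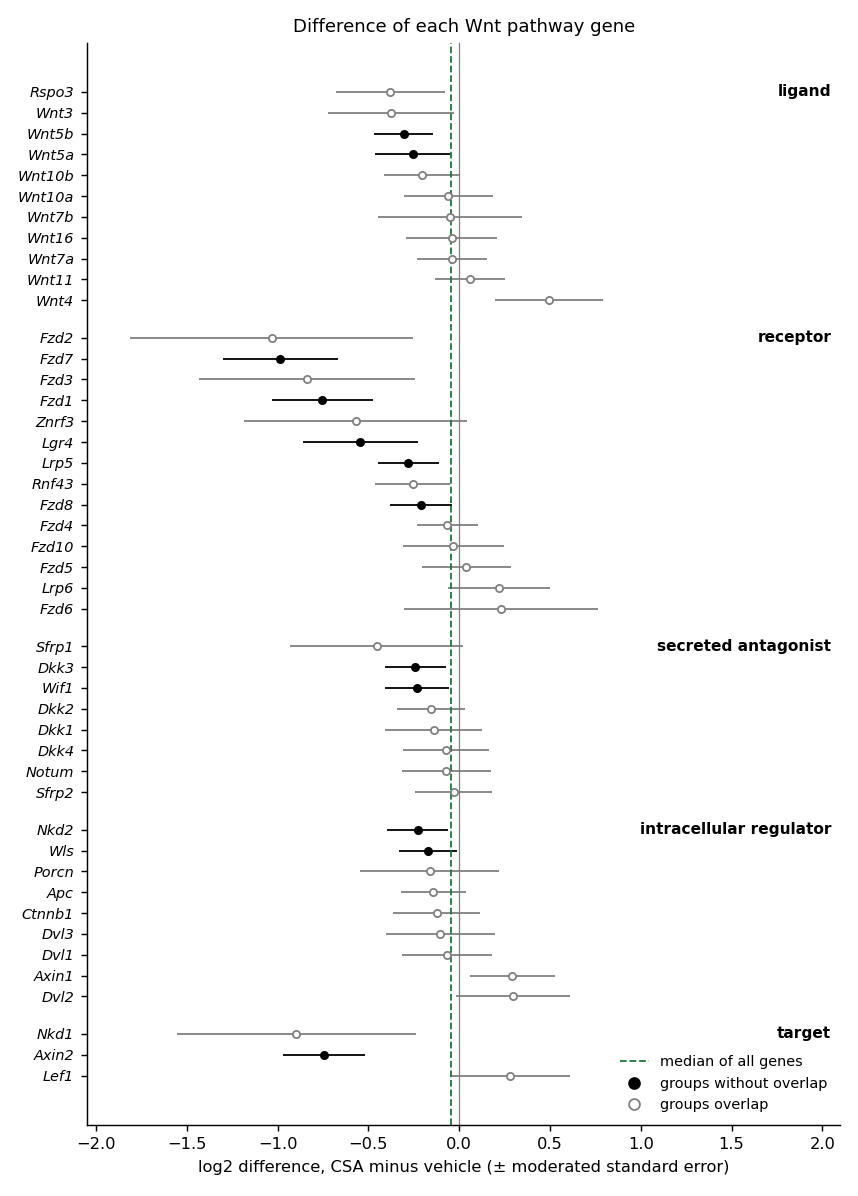
Log2 difference, CSA minus vehicle, of each of the 45 Wnt pathway genes, grouped by class (points), with limma's moderated standard error (bars, 2 arrays per group). Filled points are the 12 genes whose CSA and vehicle arrays did not overlap, all of them lower in CSA, and the dashed line is the median of all genes at -0.04.

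Fzd7, a Frizzled receptor of canonical signalling, had values of -0.01 and 0.78 in CSA against 1.38 and 1.37 in vehicle. Both vehicle values lay close together, above each CSA value. The difference was -0.98 ± 0.32 (95% interval -1.85 to -0.12, limma adjusted p = 0.999), which is 50.5% of the vehicle level. Without CSA replicate 1 it was -0.59 and without CSA replicate 2 -1.38.

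Fzd1, of the same Frizzled subfamily as Fzd7 and Fzd2, stood at 0.63 and 0.32 in CSA against 0.93 and 1.53 in vehicle. The groups did not overlap, and the nearest arrays were CSA replicate 1 and vehicle replicate 1. Its difference of -0.75 ± 0.28 (95% interval -1.52 to 0.01, limma adjusted p = 0.999) was -0.45 without vehicle replicate 2.

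Axin2 encodes a scaffold of the complex that destroys beta-catenin, and its transcription is widely used as a readout of Wnt signalling. It lay at -0.98 and -0.80 in CSA against 0.08 and -0.37 in vehicle. The CSA arrays agreed closely and both lay below the vehicle arrays. The difference was -0.74 ± 0.23 (95% interval -1.36 to -0.12, limma adjusted p = 0.999), with a range from -0.97 to -0.52 when each array was left out.

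The sequences before the starts of these 3 genes are shown because they are the members whose groups stood 1.5-fold apart without overlap. Each is the 250 bases before the annotated start, from RefSeq on build GRCm38.p6, read 5′ to 3′ on the gene's strand. Capitals mark CTTTGA or CTTTGT, the core of the Tcf and Lef motif, and GGAAA, the core of the NFAT motif, on either strand (a motif on the opposite strand appears as its reverse complement).
Fzd7, chr1:59481897-59482146, plus strand: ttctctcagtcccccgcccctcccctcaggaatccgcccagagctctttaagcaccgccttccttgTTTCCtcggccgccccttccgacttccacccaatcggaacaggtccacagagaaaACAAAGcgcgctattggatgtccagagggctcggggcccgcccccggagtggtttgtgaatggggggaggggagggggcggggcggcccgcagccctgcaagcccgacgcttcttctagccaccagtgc
Fzd1, chr5:4758217-4758466, minus strand: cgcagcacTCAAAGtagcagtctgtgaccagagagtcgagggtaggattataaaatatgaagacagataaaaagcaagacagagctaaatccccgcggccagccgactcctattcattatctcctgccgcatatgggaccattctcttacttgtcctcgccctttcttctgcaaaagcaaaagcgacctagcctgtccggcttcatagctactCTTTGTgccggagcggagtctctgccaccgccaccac
Axin2, chr11:108920099-108920348, plus strand: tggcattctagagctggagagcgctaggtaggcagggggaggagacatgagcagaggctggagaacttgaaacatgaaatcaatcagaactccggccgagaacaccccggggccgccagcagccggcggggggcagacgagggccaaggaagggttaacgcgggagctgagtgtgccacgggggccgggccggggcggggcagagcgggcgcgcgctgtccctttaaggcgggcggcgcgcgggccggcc

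Fzd7 held 1 Tcf core that began 129 bases before the start and 1 NFAT core at 184 bases. Fzd1 held 2 Tcf cores, at 242 and 37 bases, and Axin2 held 0 of these motifs. Of 32851 windows of the same length 27.6% held a Tcf core and 55.6% an NFAT core. Windows were given for 27 of the 45 measured members, 35 windows in all, of which 7 held a Tcf core and 15 an NFAT core. These are matches of letters in a short window and not sites of binding.

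Among the other Frizzled genes Fzd2 and Fzd3 had differences of similar size to that of Fzd7, with groups that overlapped. Fzd2 measured 0.35 and 2.52 in CSA against 2.64 and 2.30 in vehicle. CSA replicate 1 alone lay low, and the difference of -1.03 ± 0.78 was 0.05 without that array. Fzd3, a receptor known for its part in planar cell polarity, stood at 0.43 and 1.62 in CSA against 1.30 and 2.44 in vehicle. The gap of -0.84 ± 0.59 shrank to -0.24 without CSA replicate 1 and to -0.27 without vehicle replicate 2.

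Fzd8 lay near its baseline at -0.04 and -0.24 in CSA against 0.07 and 0.07 in vehicle (-0.21 ± 0.17, and -0.11 without CSA replicate 2), without overlap. The remaining Frizzled genes went both ways and their groups overlapped. Fzd6, known for polarity of hair patterns in mouse skin, lay at 1.06 and -0.25 in CSA against 0.50 and -0.15 in vehicle, with both arrays numbered 1 above both numbered 2 (0.23 ± 0.53). Fzd5 measured 0.40 and -0.13 in CSA against 0.18 and 0.01 in vehicle (0.04 ± 0.24). Fzd4, also a receptor for norrin, stood at 0.06 and 0.08 in CSA against 0.24 and 0.04 in vehicle (-0.07 ± 0.17). Fzd10 lay at -0.33 and -0.58 in CSA against -0.11 and -0.73 in vehicle (-0.03 ± 0.28). Of the 9 Frizzled genes 7 were lower in CSA, with a median difference of -0.21.

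The co-receptor genes differed from each other in direction. Lrp5 measured -0.19 and -0.37 in CSA against 0.02 and -0.02 in vehicle, without overlap (-0.28 ± 0.17, and -0.19 without CSA replicate 2). Lrp6 stood at 0.55 and 0.14 in CSA against -0.14 and 0.40 in vehicle, so that the groups overlapped (0.22 ± 0.28, and -0.05 without vehicle replicate 1).

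Lgr4 encodes a receptor for R-spondins, which raise the amount of Frizzled at the cell surface. It stood far above its baseline on 3 arrays, at 1.11 and 0.32 in CSA and 1.19 and 1.32 in vehicle. CSA replicate 2 was the low array, and the difference of -0.54 ± 0.32 was -0.15 without it.

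The membrane ubiquitin ligases Znrf3 and Rnf43 remove Frizzled receptors and are themselves targets of the pathway. Znrf3 lay at -0.31 and -1.08 in CSA against -0.89 and 0.64 in vehicle. Vehicle replicate 2 was the only array above the baseline, and the difference of -0.57 ± 0.62 turned to 0.20 without it. Rnf43 measured -0.42 and -0.14 in CSA against -0.16 and 0.11 in vehicle (-0.26 ± 0.21, and -0.11 without CSA replicate 1). Over the 14 genes of the receptor class 11 were lower and 3 higher in CSA, with a median difference of -0.27. For 5 of them (35.7%) both CSA arrays lay below both vehicle arrays, against 15.4% of all genes.

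**Figure D2:**
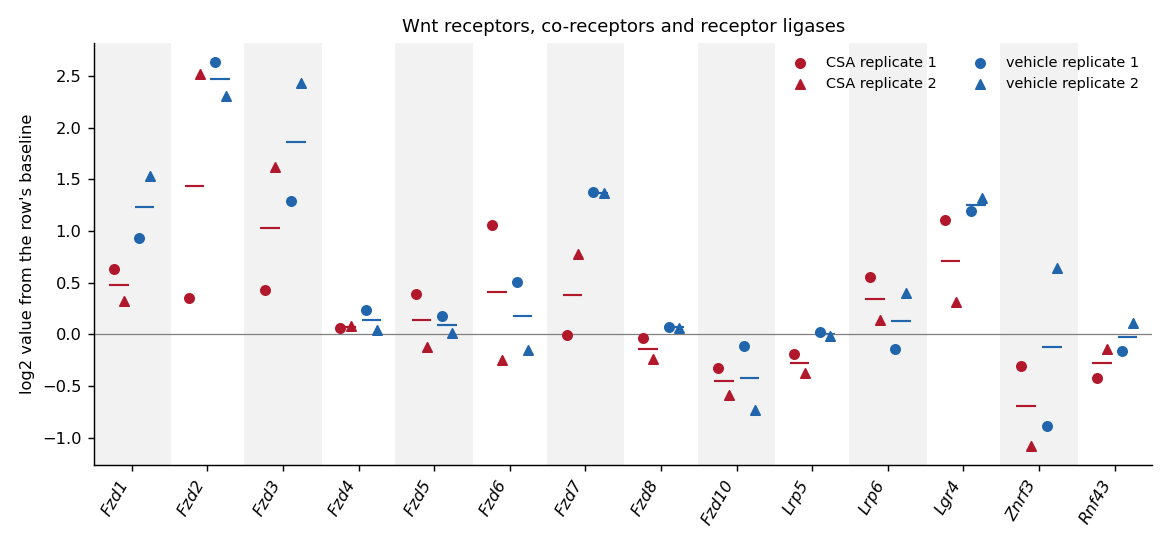
Values on each array of the 14 receptor, co-receptor and receptor ligase genes, as log2 distance from each row's baseline (y axis), with CSA in red left of vehicle in blue and a line at each group's mean. Both CSA arrays lie below both vehicle arrays for Fzd1, Fzd7, Fzd8, Lrp5 and Lgr4, and 1 CSA array alone is low for Fzd2.

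The measured genes of the target class did not share a direction, since Lef1 alone was higher in CSA. Other genes known as targets are described with their own classes or lists. Nkd1, an inhibitor of Dishevelled that the pathway induces, stood at -0.08 and 0.47 in CSA against 1.97 and 0.21 in vehicle. Vehicle replicate 1 alone was high, and the difference of -0.90 ± 0.66 was -0.02 without it. Lef1, a DNA-binding partner of beta-catenin that is known from the activated hair germ and hair matrix, lay at 0.79 and -0.04 in CSA against 0.15 and 0.04 in vehicle. CSA replicate 1 was the high array, and the difference of 0.28 ± 0.33 was -0.13 without it. With Axin2 the class had 3 measured genes, of which Axin2 alone had groups without overlap.

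Markers of differentiated epidermis differed between the same arrays, above all vehicle replicate 1. Of the 11 listed markers 8 had a row, and all 8 were lower in CSA, with medians of -1.03 and -0.39 on the CSA arrays and of 0.76 and -0.36 on the vehicle arrays. The 10 fibroblast and dermal papilla markers were likewise all lower, with medians of 0.02 and -0.14 in CSA and 0.19 and -0.06 in vehicle. So were the 7 endothelial markers, with medians of -0.01 and -0.09 in CSA and 0.27 and -0.002 in vehicle. Lower without overlap were 6 of 8 epidermal, 3 of 10 fibroblast and 3 of 7 endothelial markers, against 15.4% of all genes. The 6 epidermal markers and 1 fibroblast marker were also 1.5-fold apart, against 1.99% of all genes. Of the melanocyte markers 4 of 6 and of the immune markers 5 of 7 were lower, with median differences of -0.02 and -0.04. Vehicle replicate 1 was the highest array for 7 of the 8 epidermal and 8 of the 10 fibroblast markers. It was also the highest for 6 of the 7 endothelial and 6 of the 7 immune markers, but for 1 of the 6 melanocyte markers. Bulge markers, which were lower for 8 of 11, had medians of 0.13 and 1.11 in CSA against 0.60 and 0.87 in vehicle. Of the 11, 3 were lower without overlap, and 2 of these, Cd34 (-1.47) and Cd200 (-0.80), stood 1.5-fold apart. CSA replicate 1 was the lowest array for 8 of the 11 bulge markers. It was the lowest for 10 of the 45 Wnt pathway genes and for 4524 of all 19935 genes. CSA replicate 2 took the lowest place more often, for 22 of the 45 Wnt pathway genes, against 6533 of all 19935 genes. The median of these 45 genes was -0.13 in CSA replicate 2, where all genes had -0.02. In each other array it lay between 0.03 and 0.11. Vehicle replicate 1 was the highest array for 21 of the 45 Wnt pathway genes (46.7%) and for 43.2% of all genes. The part of these cells in the Wnt pathway values was not tested. The medians describe distance from a baseline, so that no marker can be said to be absent.

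Ligand genes lay near or below their baselines, from -0.86 to 0.40 on the 4 arrays. A 1.5-fold difference was found for 0 of 11, against 3.36% of all genes lower and 6.11% higher. The median difference of the ligands was -0.06, with 9 lower and 2 higher in CSA. After quantile normalization Wnt7a and Wnt10a turned to 0.01 and 0.06. By array the class medians were -0.02 and -0.38 in CSA against 0.06 and -0.38 in vehicle, so that they were higher on the arrays numbered 1 than on those numbered 2 in both groups. Without vehicle replicate 1 the median difference of the ligands was 0.07.

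Wnt5a and Wnt5b, close relatives that signal mostly without beta-catenin, were the ligands whose groups did not overlap. They made up 18.2% of the 11 ligand genes, where 15.4% of all genes were lower without overlap. Wnt5a measured -0.39 and -0.78 in CSA against -0.28 and -0.38 in vehicle (-0.26 ± 0.21, and -0.06 without CSA replicate 2), and the nearest arrays of the groups were almost equal. Wnt5b stood at -0.02 and 0.06 in CSA against 0.40 and 0.25 in vehicle (-0.31 ± 0.16). With each array left out its difference lay between -0.38 and -0.23.

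Wnt3, a canonical ligand of the hair matrix, lay at -0.74 and -0.84 in CSA against 0.03 and -0.86 in vehicle. Rspo3, an R-spondin that binds the Lgr receptors, measured -0.51 and -0.61 in CSA against 0.19 and -0.55 in vehicle. In both genes vehicle replicate 1 alone lay high. Their differences of -0.37 ± 0.35 and -0.38 ± 0.30 were 0.07 and -0.01 without it. Wnt10b, a canonical ligand linked to the start of hair growth in mice, also had vehicle replicate 1 as its high array, with -0.30 and -0.38 in CSA against 0.06 and -0.33 in vehicle (-0.21 ± 0.21, and -0.01 without vehicle replicate 1). Wnt10a, whose human counterpart is mutated in ectodermal dysplasias, stood at -0.25 and -0.24 in CSA against 0.09 and -0.46 in vehicle (-0.06 ± 0.25).

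Wnt7b, which is known for a role in activation of mouse bulge cells, lay at 0.07 and -0.74 in CSA against 0.05 and -0.62 in vehicle. The groups matched by replicate number, and the difference was -0.05 ± 0.39. Wnt16 showed the same pattern at -0.01 and -0.50 in CSA against -0.07 and -0.36 in vehicle (-0.04 ± 0.25). So did Wnt7a, at 0.05 and -0.21 in CSA against 0.06 and -0.14 in vehicle (-0.04 ± 0.19). Wnt11, a ligand of the planar polarity branch, also followed it at 0.18 and -0.06 in CSA against 0.12 and -0.12 in vehicle (0.06 ± 0.19).

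Wnt4 had the largest difference of the 11 ligand genes, and its 2 rows disagreed in direction. The row used measured 0.32 and -0.23 in CSA against -0.21 and -0.69 in vehicle (0.50 ± 0.30, and 0.22 without CSA replicate 1 or 0.25 without vehicle replicate 2). The other row stood at -0.24 and -0.55 in CSA against -0.03 and -0.35 in vehicle, a difference of -0.20. The groups overlapped in both rows, and no direction can be given for this gene. The counts of higher genes in this report hold Wnt4 by the row used. With its other row 38 members were lower and 7 higher, and the median difference of the ligands was -0.20.

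All 8 secreted antagonists were lower in CSA with the values as deposited (median -0.15, from -0.45 to -0.03), but Dkk4 was 0.02 after quantile normalization. None of them stood 1.5-fold apart, against 3.36% of all genes lower and 6.11% higher. Of the 8, 2 (25%) were lower without overlap, against 15.4% of all genes. Dkk3, a divergent Dickkopf that is a marker of the bulge, was far above its baseline on every array, at 1.27 and 1.08 in CSA against 1.40 and 1.43 in vehicle (-0.24 ± 0.17, and -0.15 without CSA replicate 2). Wif1, which binds Wnt proteins directly, lay at 0.08 and 0.01 in CSA against 0.40 and 0.15 in vehicle (-0.23 ± 0.18, and -0.10 without vehicle replicate 1). Both CSA arrays lay below both vehicle arrays in each of these genes.

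Sfrp1, a soluble Frizzled-like inhibitor and a bulge marker, measured 0.35 and 1.14 in CSA against 0.69 and 1.71 in vehicle. Both arrays numbered 2 lay above both numbered 1, so that the groups overlapped. The gap of -0.45 ± 0.48 moved with every array: it was -0.06 and -0.85 without CSA replicates 1 and 2, and -0.97 and 0.06 without vehicle replicates 1 and 2. Sfrp2, of the same family, stood at 0.28 and -0.14 in CSA against 0.08 and 0.11 in vehicle (-0.03 ± 0.21).

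Dkk1, which blocks the Lrp co-receptors, lay at 0.10 and 0.01 in CSA against 0.51 and -0.12 in vehicle. Dkk4, a target that feeds back in the same way, measured -0.07 and -0.02 in CSA against 0.28 and -0.24 in vehicle. In both genes the vehicle arrays lay on either side of the CSA arrays. Their differences of -0.14 ± 0.27 and -0.07 ± 0.24 were 0.17 and 0.19 without vehicle replicate 1. Dkk2 stood at 0.03 and -0.27 in CSA against 0.07 and 0.01 in vehicle (-0.16 ± 0.19, and -0.006 without CSA replicate 2). Notum, an enzyme that removes the lipid of Wnt proteins, lay at 0.22 and -0.33 in CSA against 0.02 and 0.01 in vehicle (-0.07 ± 0.24), with the CSA arrays on either side.

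**Figure D3:**
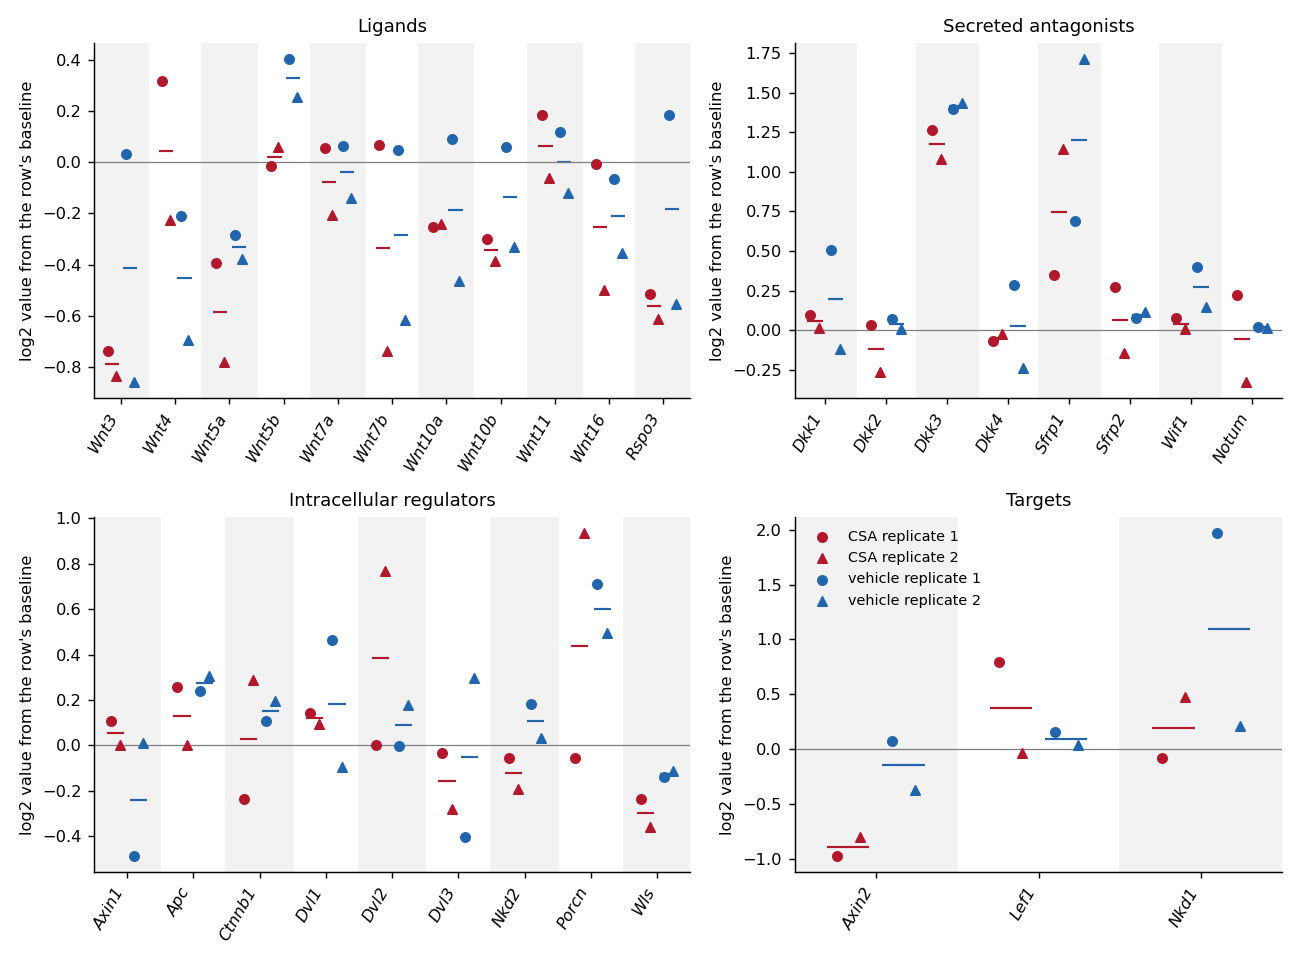
Values on each array of the ligand, secreted antagonist, intracellular regulator and target genes, as log2 distance from each row's baseline (y axes, which differ between panels), with CSA in red left of vehicle in blue and a line at each group's mean. Axin2 parts the groups by 0.74 on average, vehicle replicate 1 alone is high for Nkd1, and Wnt7b follows the replicate number in both groups.

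Of the 9 genes that act inside the cell 7 were lower in CSA, with a median difference of -0.12, against -0.04 over all genes. A 1.5-fold difference was found for 0 of 9, against 3.36% of all genes lower and 6.11% higher. Lower without overlap were 2 of 9 (22.2%), against 15.4% of all genes. Ctnnb1, which encodes beta-catenin itself, measured -0.24 and 0.29 in CSA against 0.11 and 0.19 in vehicle. The CSA values spanned those of vehicle, and the 95% interval of the difference ran from -0.78 to 0.54. Apc, of the complex that destroys it, stood at 0.26 and 0.004 in CSA against 0.24 and 0.31 in vehicle (-0.14 ± 0.18, and -0.015 without CSA replicate 2). Axin1, the constitutive relative of Axin2, lay at 0.11 and -8.58e-06 in CSA against -0.49 and 0.01 in vehicle. The sign of its difference, 0.29 ± 0.23, was opposite to that of Axin2, and it was 0.04 without vehicle replicate 1. A test of Axin1 against Axin2 was not made.

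The 3 Dishevelled genes, which relay the signal from Frizzled, overlapped between groups. Dvl1 measured 0.15 and 0.09 in CSA against 0.46 and -0.10 in vehicle (-0.07 ± 0.25). Dvl2 stood at 0.001 and 0.77 in CSA against -0.001 and 0.18 in vehicle (0.30 ± 0.31, and -0.09 without CSA replicate 2, the high array). Dvl3 lay at -0.03 and -0.28 in CSA against -0.40 and 0.30 in vehicle (-0.10 ± 0.30). Nkd2, which like Nkd1 binds Dishevelled, measured -0.06 and -0.19 in CSA against 0.18 and 0.03 in vehicle, without overlap (-0.23 ± 0.17).

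Porcn and Wls serve the release of Wnt proteins, the first by adding their lipid and the other as their carrier. Wls stood at -0.23 and -0.36 in CSA against -0.14 and -0.11 in vehicle, a small gap without overlap (-0.17 ± 0.16, and -0.11 without CSA replicate 2). Porcn lay at -0.06 and 0.93 in CSA against 0.71 and 0.49 in vehicle. CSA replicate 1 was the low array, and the difference of -0.16 ± 0.38 was 0.33 without it.

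A difference of at least 1.5-fold, with or without overlap, was found for 6 members lower in CSA and 0 higher (3.36% and 6.11% of all genes). These 6 depended on single arrays to unequal degrees. Axin2, Fzd1 and Fzd7 stayed between -1.38 and -0.45 whichever array was left out. Their groups did not overlap, so that leaving out 1 array could change the size of the difference but not its sign. Fzd2 and Nkd1 were at 0.05 and -0.02 without 1 array each, and Fzd3 lay between -1.44 and -0.24. Over all members 19 were lower with every array left out in turn, 2 were higher each time and 24 changed sign at least once. The 12 members without overlap are among the 19 by construction, and the same count over all genes was not made.

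**Figure D4:**
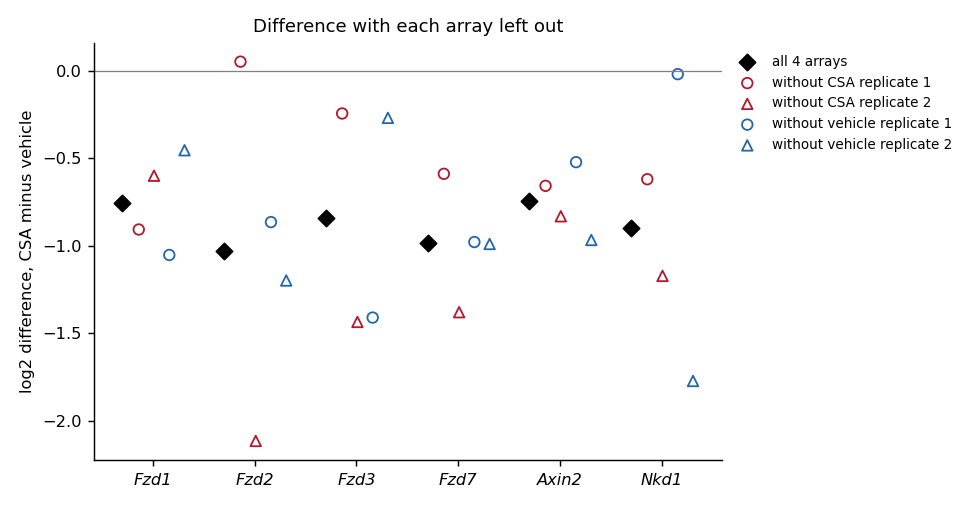
Log2 difference, CSA minus vehicle (y axis), of the 6 members at least 1.5-fold apart, with all 4 arrays (black) and with each array left out in turn (open symbols, where the colour and shape name the array left out). Axin2, Fzd1 and Fzd7, whose groups did not overlap so that their sign could not turn, stay at or below -0.45. Fzd2 is at 0.05 without CSA replicate 1 and Nkd1 at -0.02 without vehicle replicate 1.

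A list of 73 further genes of the pathway, all with a row, had 47 genes lower and 26 higher in CSA. The share lower was 64.4%, against 58.9% of all genes, and the median difference was -0.11, against -0.04 over all genes. Groups did not overlap for 17 lower and 5 higher genes (23.3% and 6.85%, against 15.4% and 10.9% of all genes). Of these, 4 lower and 2 higher ones were also 1.5-fold apart (1.99% and 3.91% of all genes). By limma 0 of 73 passed (smallest adjusted p 0.999), and 4 had an unadjusted p under 0.05, against 2.83% of all genes.

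The 8 genes of this list with the largest absolute moderated t were 5 lower and 3 higher in CSA. Cd44, a receptor for hyaluronan, measured -1.27 and -0.97 in CSA against 0.18 and 0.37 in vehicle (-1.39 ± 0.20), and each CSA array lay more than 1 unit below the lower vehicle array. Nrcam, a cell adhesion gene, stood at -0.09 and -0.01 in CSA against 0.50 and 0.76 in vehicle (-0.68 ± 0.18). Ccnd1, which encodes cyclin D1, differed by -1.52 ± 0.45 without overlap, and by -0.91 without CSA replicate 1. Apcdd1, a membrane inhibitor that Wnt signalling induces, lay at -1.62 and -2.64 in CSA against -0.17 and -1.43 in vehicle (-1.33 ± 0.58). That difference was -0.70 without vehicle replicate 1. Kremen2, a receptor for Dickkopf proteins, measured -0.11 and -0.28 in CSA against 0.27 and 0.02 in vehicle (-0.34 ± 0.19, and -0.21 without vehicle replicate 1).

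Ctnnbip1, which keeps beta-catenin from its DNA-binding partners, was higher in CSA, at 0.62 and 0.88 against -0.17 and 0.26 in vehicle (0.71 ± 0.23). Prickle2, of the planar polarity branch, stood at 0.95 and 1.46 in CSA against 0.19 and 0.73 in vehicle (0.74 ± 0.30, and 0.47 without vehicle replicate 1). Csnk1e, a casein kinase of the pathway, lay at 0.72 and 0.003 in CSA against -0.23 and -0.11 in vehicle (0.53 ± 0.29, and 0.18 without CSA replicate 1). The groups did not overlap in these 3 genes. Myc, Sp5 and Lgr5, also known as targets of the pathway and named after their values were seen, had differences of 0.68 ± 0.51, -0.21 ± 0.24 and -0.40 ± 0.88 with groups that overlapped. Lgr5 was at 0.85 without CSA replicate 1 and at -1.64 without CSA replicate 2.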

How the data were processed

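RNA of sorted bulge cells was measured on 4 one-colour arrays, 2 for CSA and 2 for vehicle, from 20 ng of total RNA amplified in 1 round, per the labels' protocols. Groups and replicate numbers came from the titles. The deposited values are log2 values by assumption, since the authors named no base; they had centred each of 28815 rows on a baseline of their own, which was neither the mean nor the median of these arrays (11.4% of rows had a median of 0). Array software and normalization: not given in the sources used here. Build mm8 is named in the submitters' processing notes. The platform annotation gave 21780 rows 1 gene and 1605 several (left out), and 5430 stayed unnamed. For 21689 rows the gene identifier was found in a RefSeq table of GRCm38, and 0 symbols changed. Of several rows of a gene, the one with the highest mean was used. Signal over background could not be assessed, and precision is limited by the number of arrays.

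Differences were fitted with limma 3.58.1 in R 4.3.3 (lmFit and eBayes without trend, no block, no filter, two-sided) over 19935 genes, with Benjamini-Hochberg adjustment and a threshold of 0.05. The fit was tested on simulated data. Alternatives were quantile normalization, median centring, the eBayes trend, no moderation, other row choices, a filter at the 25th percentile of the mean, a replicate block and leaving out each array. All members are named, with the 8 other pathway genes of largest absolute moderated t. The members, classes, lists and tests were chosen with earlier results of these data known. No list was tested for enrichment.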

Additional observations from a re-analysis of the deposited data

How the results depend on the processing

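limma called 0 genes under each of the 12 alternatives, with 381 to 1410 genes at an unadjusted p under 0.05. The count of members lower in CSA and 1.5-fold apart without overlap was 5 without CSA replicate 1 and 8 without CSA replicate 2. It was 6 without either vehicle array, and in these fits 2.88% to 7.63% of all genes were lower in this way. The count of higher members was 1, 3, 1 and 0 without CSA replicates 1 and 2 and vehicle replicates 1 and 2. The share of all genes higher in this way was not counted for these fits, so the higher counts have no background. With 1 array against 2, groups overlap less often by construction. The same fits put the median over the members between -0.24 and -0.055, and that of the targets, of 3 genes, between -0.97 and -0.018. The filter at the 25th percentile removed Axin2 and 15 other members and gave -0.31 for the targets. Quantile normalization turned Wnt7a to 0.0081, Wnt10a to 0.061 and Dkk4 to 0.024, and the row with the lowest mean turned Wnt4 to -0.20; the cause was not tested. Leaving out 1 array turned 24 members, whose differences then ranged as follows: Wnt11 from -0.061 to 0.18, Fzd2 from -2.12 to 0.053, Fzd5 from -0.22 to 0.30, Fzd6 from -0.43 to 0.89, Ctnnb1 from -0.39 to 0.14, Porcn from -0.66 to 0.33, Lef1 from -0.13 to 0.70, Wnt7a from -0.17 to 0.093. Further ranges were Wnt7b from -0.45 to 0.35, Wnt16 from -0.29 to 0.20, Fzd10 from -0.34 to 0.27, Sfrp2 from -0.24 to 0.18, Notum from -0.34 to 0.20, Dvl2 from -0.087 to 0.68, Dvl3 from -0.45 to 0.25, Wnt3 from -0.82 to 0.072. The remaining ones were Wnt10a from -0.34 to 0.22, Fzd4 from -0.16 to 0.033, Lrp6 from -0.053 to 0.49, Dkk1 from -0.45 to 0.17, Dkk4 from -0.33 to 0.19, Dvl1 from -0.34 to 0.21, Znrf3 from -1.34 to 0.20, Sfrp1 from -0.97 to 0.057. With the replicate block limma called 0 genes and 914 had an unadjusted p under 0.05, among them Fzd7, Axin2, Fzd3 and Wnt4; the differences stayed the same by construction (median -0.16 over the members). The deviations of equally numbered arrays correlated at 0.236 across genes, and with 2 pairs the number alone does not pair the samples. The other recomputed summaries, 95 in all, stayed within the spread between replicates or within 1.5 times the count.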
